A study of Mus musculus with 7 samples.

Results

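Ribosome biogenesis factors are the proteins that transcribe ribosomal RNA, modify and cut it, and fit ribosomal proteins onto it in the nucleolus. A list of 40 such genes was followed in mouse plantaris muscle as loading returned after disuse. Genes were taken where a row of the array carried that gene's symbol alone, and the row of highest mean log2 intensity stood for each gene. This gave 39 of the 40 genes, out of 19938 genes with such a row, and Noc2l was not analysed here. Of the 39 genes, 38 had a mean at or above the median row (an intensity of 129.9), as did 11320 genes in all, which are called the kept genes. Rrs1 lay below it, with intensities of 102 to 120.9.

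The samples were left plantaris muscles, a fast calf muscle, of male C57BL/6J mice aged 5 months. Every animal had first spent 2 weeks in hindlimb suspension, which unloads the hind limbs, so there is no group that was never suspended. The groups are d0, taken at the end of suspension and labelled the control, and d1, d3, d5, d7, d10 and d14, taken on that day of renewed loading. Each of the 7 groups is 1 array of RNA pooled from 6 animals. With 1 array a day, a difference between days has neither a replicate error nor a p-value, and precision is limited by how few arrays there are. Differences are log2 ratios of intensities, so 0.58 stands for the 1.5-fold used as a threshold. In pooled whole muscle, fewer cells of a type and less RNA per cell cannot be told apart.

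The defining markers of the labelled tissue were at high intensity. All 12 skeletal muscle markers, among them the creatine kinase Ckm and the actin Acta1, passed the filter on low values, and their summed intensity was 170660 to 184307 over the arrays. Over the kept genes, the robust SD of the log2 ratio of d1 to d0 was 0.179, against 0.0885 between d14 and d3, the closest pair of arrays. The median kept gene stood at 0.10 at d1, so part of any ratio to d0 was shared by most genes.

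As background, RNA polymerase I copies the ribosomal DNA into a long precursor. Small nucleolar RNAs (snoRNAs), bound to proteins as snoRNPs, guide methylation (box C/D) and pseudouridylation (box H/ACA) of that precursor. The small subunit processome and the large subunit factors then fold and cleave it, and late factors escort the subunits to the cytoplasm. In muscle, ribosome number sets the capacity for protein synthesis, and making ribosomes is known as an early step of growth under load.

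The main result is a short peak on the first day of loading. At d1, 37 of the 39 genes were above d0 and 2 below it (71.3% of kept genes were above and 24.7% below), and the median of their log2 ratios was 0.35, against 0.10 for the kept genes. The median was back at 0.02 by d3 and was -0.01, -0.04, 0.08 and 0.02 on the last 4 arrays in order of day. All of these ratios share the d0 array. For 32 of the 39 genes, d1 was the highest of the 7 arrays, which was so for 29.4% of kept genes. Among the 32, Fbl and Wdr12 each have a second row whose highest array was not d1. Those second rows may be the genes' own, as set out under the processing. In 14 of the 39, d1 stood at least 25% above every other array, against 2.46% of kept genes. Without the d0 array, 32 of 39 were still highest at d1 (31% of kept genes). Set against d14 in place of d0, the median at d1 was 0.30 and 36 of 39 genes were higher (51.4% of kept genes).

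**Figure D1:**
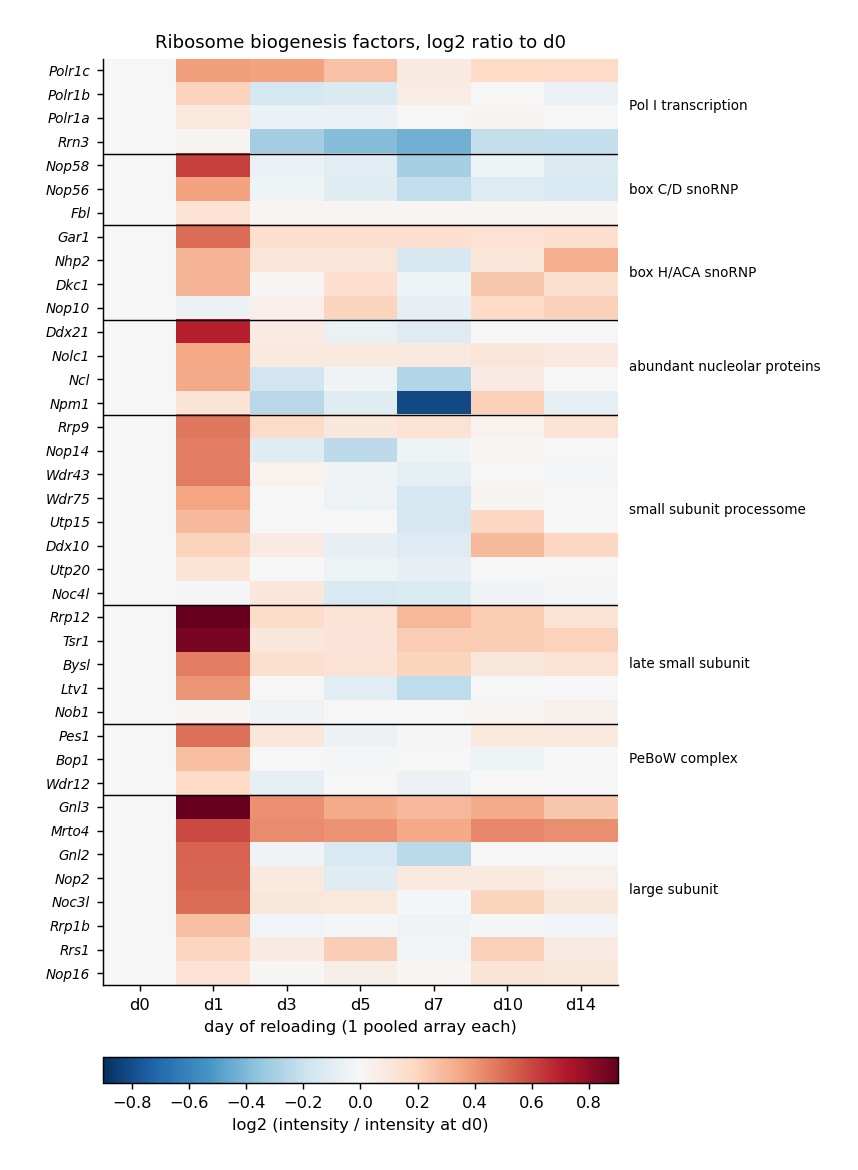
Log2 ratio of each array to d0 for the 39 ribosome biogenesis factors (rows, grouped by role and ordered by the d1 ratio) on the 7 arrays (columns, 1 pool each). Red is higher and blue lower than d0, and d1 is red for 37 genes. Blue cells are most frequent at d7 (23 genes) and d5 (20 genes), with Npm1 at d7 the deepest at -0.81.

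A ratio of at least 1.5-fold at d1 was reached by 6 of the 39 genes, against 3.51% of kept genes. At d1, 0 of the 39 were 1.5-fold lower (0.583% of kept genes). On the later days 0 of 39 were 1.5-fold higher, against 1.67%, 1.36%, 1.49%, 2.15% and 0.68% of kept genes from d3 to d14. The 6 genes were Rrp12, Gnl3, Tsr1, Ddx21, Nop58 and Mrto4, the last only in the row used (log2 0.59, against 0.55 in its second row, which may be the gene's own). They act in different steps, namely late small subunit assembly, large subunit assembly, nucleolar RNA unwinding and the box C/D snoRNP.

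After d1 the signs were mixed. On d3, 23 genes were above d0 and 12 below (65.1% and 29.4% of kept genes), with the other 4 equal to it. On d5 the counts were 16 above and 20 below (60.9% and 33.9%). On d7 they were 15 above and 23 below (65.5% and 30.4%), the lowest count above d0 of any day. On d10, 28 were above and 6 below (73.4% and 22.7%), a share above d0 close to that of the kept genes. On d14, 22 were above and 11 below (71.7% and 22.1%). At least 1.5-fold lower values were seen in 1 gene at d7 and in 0 of 39 on the other days, the kept genes' shares being 0.459% at d3, 0.38% at d5, 0.309% at d10 and 0.239% at d14.

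The late small subunit group held the highest median of d1 log2 ratios after the large subunit, at 0.46 over 5 genes. Rrp12, which helps subunits leave the nucleus, had intensities of 304.9, 568.9, 341.6, 332, 375.2, 358 and 332.8 at d0, d1, d3, d5, d7, d10 and d14. The d1 array stood alone at the top, 1.87-fold above d0 (log2 0.90) and 1.52-fold above the next array. Tsr1, a GTPase-like protein that sits on the maturing small subunit, had intensities of 354.2, 641.5, 379.3, 383.7, 415.9, 416 and 409.9 in the same order of days. It was 1.81-fold above d0 at d1 (log2 0.86), and every later value lay between those of d0 and d1. Bysl (bystin) stood at 0.46 and Ltv1, an export adaptor of the small subunit, at 0.40 at d1. Nob1, the nuclease that makes the final cut of the small subunit RNA, had intensities of 740.4, 744.3, 725.6, 740.4, 740.4, 749.9 and 759.1. Its 7 values hardly differed, with a d1 log2 ratio of 0.01 and no peak at d1.

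Among 8 large subunit genes the median log2 ratio at d1 was 0.51. Gnl3 (nucleostemin), a nucleolar GTPase also known from stem cells, had intensities of 296.6, 552.9, 394.5, 373.6, 363.9, 373.6 and 351.6 from d0 to d14. It was 1.86-fold above d0 at d1 (log2 0.90), and its later arrays all stayed above d0, by 0.25 to 0.41. Mrto4, an assembly factor related to a protein of the large subunit's stalk, had intensities of 187.1, 282.4, 250.9, 247.2, 237, 252.8 and 250.1. Its course differed from the others, because it was 1.51-fold above d0 at d1 (log2 0.59) but only 1.12-fold above the next array. The second row of Mrto4 had the same form, with 282.3 at d1 and 192.2 at d0 (log2 0.55), but lay below the 1.5-fold threshold.

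The GTPase Gnl2, the RNA methyltransferase Nop2 and the assembly factor Noc3l stood near one another at d1, with log2 ratios of 0.53, 0.52 and 0.50. Rrp1b, a nucleolar protein of the same step, stood at 0.27. Rrs1, which brings in the smallest ribosomal RNA, stood at 0.20. Nop16 had the lowest ratio of the group, with intensities of 948.2, 1039.5, 956.9, 981.9, 961.4, 1025.1 and 1017.9 from d0 to d14. Its d1 value was the highest of the 7 by 1.01-fold only.

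The PeBoW complex, made of Pes1, Bop1 and Wdr12, is needed to process the large subunit RNA. In the rows used, all 3 genes were highest at d1. Pes1 had intensities of 260, 367.2, 279.5, 250.2, 258.6, 277.5 and 276 from d0 to d14, a d1 log2 ratio of 0.50. Wdr12 had intensities of 299.2, 338.4, 282.5, 299.2, 288.4, 299.2 and 299.2, a d1 log2 ratio of 0.18. Bop1 lay between them at 0.27. In these rows the 3 subunits shared the day of the peak but not its height. The second row of Wdr12, which may be the gene's own, had a d1 log2 ratio of 0.09. It was highest at d10, with 140.9 against 139.4 at d1, so the shared day of the peak depends on the row used.

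The snoRNP proteins were uneven within each complex. Nop58, a scaffold of the box C/D particle, had intensities of 182.4, 279.9, 174.7, 171.1, 148, 176.5 and 167.4 from d0 to d14. Its d1 value was 1.53-fold above d0 (log2 0.62), and the 5 later values lay below d0. Its partner Nop56 stood at 0.36 at d1 and was likewise below d0 afterwards. Fbl (fibrillarin), the methyltransferase of the same particle, had intensities of 287, 314.6 and then 290.6 on each of the 5 later arrays, a d1 log2 ratio of 0.13. The second row of Fbl, which may be the gene's own, had a d1 log2 ratio of 0.08 and was highest at d7, with 283.1 against 263.6 at d1.

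In the box H/ACA particle, Gar1 had intensities of 304, 431, 337.2, 337.2, 337.2, 333.3 and 337.4 from d0 to d14, a d1 log2 ratio of 0.50. Dkc1 (dyskerin), the pseudouridine synthase, and Nhp2 stood at 0.30 and 0.31. Nop10, the smallest protein of the particle, had intensities of 1455.6, 1405.4, 1499.4, 1672.7, 1385, 1647.9 and 1686.2. Its d1 value was below d0 (log2 -0.05) and its highest value fell on d14, so the 4 partners of 1 particle did not share a course.

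RNA polymerase I genes had the lowest median of d1 log2 ratios of the 8 role groups, 0.15 over 4 genes. Polr1c, a subunit that polymerase III also uses, had intensities of 283.4, 367.4, 365, 340.4, 299.3, 320.7 and 318.9 from d0 to d14. Its log2 ratio was 0.37 at d1 and again at d3. The large catalytic subunits Polr1a and Polr1b stood at 0.09 and 0.21. Rrn3, the factor that brings the polymerase to its promoter, had intensities of 1493.4, 1519.6, 1200.3, 1137, 1108.1, 1286.8 and 1286.8. Its d0 and d1 values were alike (log2 0.03) and every later value was lower, with -0.43 at d7.

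Abundant nucleolar proteins had a median log2 ratio of 0.34 at d1 over 4 genes. Ddx21, an RNA helicase that acts on both the polymerase and the processing machinery, had intensities of 522.3, 849.8, 548.8, 500.1, 481.7, 523.6 and 522 from d0 to d14. The other 6 arrays lay close together and d1 was 1.63-fold above d0 (log2 0.70). Ncl (nucleolin) and Nolc1, a chaperone of snoRNPs, stood at 0.34 and 0.35. Npm1 (nucleophosmin), a histone and ribosome chaperone, had intensities of 576.6, 628.6, 484.8, 535.7, 328, 668.2 and 543.6. Its d1 log2 ratio was 0.12, and its largest excursion was a low value at d7. Npm1 shares sequence with a near-identical copy, since 3 further rows carried its symbol together with that of Gm15484 and were not used, so its level is uncertain.

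Small subunit processome genes had a median log2 ratio of 0.32 at d1 over 8 genes. Rrp9, a protein of the snoRNP that starts the processome, had intensities of 267, 370.9, 301.5, 286.8, 292.9, 273.3 and 291.9 from d0 to d14, a d1 log2 ratio of 0.47. Nop14 and Wdr43 stood at 0.46, Wdr75 at 0.35 and Utp15 at 0.29. The helicase Ddx10 stood at 0.20 and Utp20 at 0.13. Noc4l, which in yeast pairs with Nop14, had intensities of 311.6, 309.1, 334, 283.9, 286, 304.1 and 307.1, with no peak at d1 (log2 -0.01). The 2 partners thus differed at d1, with Nop14 at 458.7 against 333.5 at d0.

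**Figure D2:**
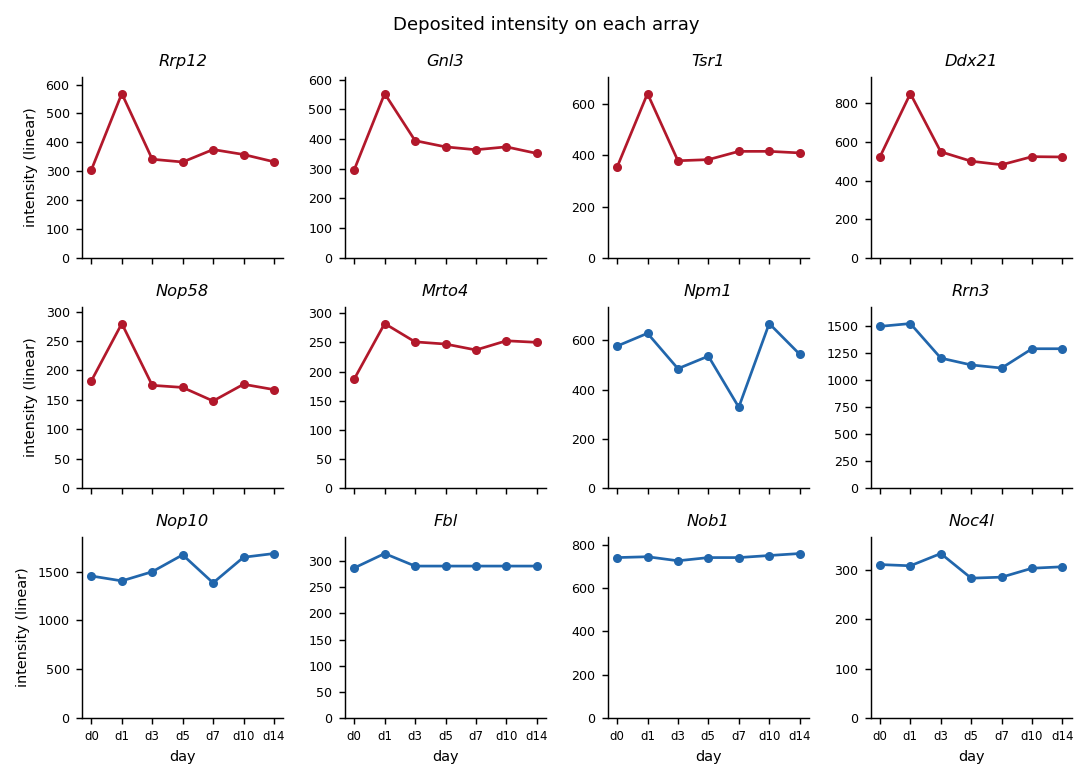
Deposited intensity (linear, axis from 0) on the 7 arrays for the 6 genes with the largest d1 ratio (red) and for Npm1, Rrn3, Nop10, Fbl, Nob1 and Noc4l (blue). Each point is 1 pool of 6 animals; the red panels share a d1 peak, Npm1 has its lowest value at d7, and Nop10, Nob1 and Noc4l have no peak at d1.

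The promoters of the list were searched for CACGTG, the E-box bound by Myc and related factors, because Myc is a known activator of this gene set. RefSeq windows of 300 bases, 250 before and 50 after a start of transcription, were at hand for 33 of the 39 genes. Not matched were Gnl2, Rrp12, Fbl, Npm1, Bop1 and Rrs1. The motif reads the same on both strands, and a gene counted if any of its windows held it. It was found in 7 of the 33 genes (21.2%), against 17 of 97 other pathway genes (17.5%), 11.9% of 9036 kept genes and 8.09% of all 27025 genes with a window. Per window, 7.15% of 32851 held it. The sites are shown 5′ to 3′ along the gene's strand, from GRCm38.p6, with the motif in capitals; that of Utp20 is cut short by the end of its window.
Nop2 (chr6:125131811-125131840, plus strand): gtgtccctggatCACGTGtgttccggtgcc
Rrn3, upstream (chr16:13780472-13780501, plus strand): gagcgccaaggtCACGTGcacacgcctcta
Rrn3, downstream (chr16:13780639-13780668, plus strand): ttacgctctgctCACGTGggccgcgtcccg
Pes1 (chr11:3963965-3963994, plus strand): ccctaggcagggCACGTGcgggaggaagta
Wdr43 (chr17:71616220-71616249, plus strand): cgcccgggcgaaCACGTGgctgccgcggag
Tsr1 (chr11:74898092-74898121, plus strand): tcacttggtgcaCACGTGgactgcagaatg
Ltv1 (chr10:13193092-13193121, minus strand): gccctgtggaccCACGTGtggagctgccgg
Utp20 (chr10:88826765-88826789, minus strand): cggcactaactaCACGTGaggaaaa

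The first base of the motif lay at -60 from the start in Nop2 and at -215 and -48 in Rrn3. In the other 5 genes it lay just inside the transcript, from 3 in Pes1 to 38 in Utp20. The 7 genes had a median d1 log2 ratio of 0.46, with Rrn3 lowest at 0.03 and Tsr1 highest at 0.86. The 26 genes without the motif had a median of 0.34 and reached from -0.05 (Nop10) to 0.90 (Gnl3), so the ranges of genes with and without it overlapped. Myc itself had intensities of 213.2, 299.3, 256.6, 220.3, 181.1, 220.3 and 167.2 from d0 to d14. It was highest at d1 (log2 0.49) and lowest at d14 (-0.35).

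Other genes of the pathway, 118 that are not on the list above, were also mostly highest on d1. They were chosen with earlier results of these data known, so they are not an independent check. Of the 115 on the array, 105 were higher and 8 lower at d1 than at d0, with a median log2 ratio of 0.29, and 8 were at least 1.5-fold higher and 0 lower. The shares of kept genes were 71.3% higher, 24.7% lower and 3.51% at least 1.5-fold higher. The other pathway genes were highest at d1 in 80 of 115 cases, against 29.4% of kept genes. Gtpbp4, a GTPase of the large subunit, led with 1231.2 at d1 against 699.4 at d0 (log2 0.82). Wdr46 stood at 0.65, Utp18 at 0.65, Ftsj3 at 0.64, the polymerase I subunit Polr1e at 0.63 and Aatf at 0.63. Nop53, the regulator Tsc1 and Pelp1 were at the low end, at -0.13, -0.13 and -0.15.

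The ribosomal proteins themselves, which the biogenesis factors assemble, had lower medians at d1. Cytosolic ribosomal proteins had a median d1 log2 ratio of 0.07 over 61 genes, of which 0 were 1.5-fold higher (3.51% of kept genes), and mitochondrial ones had 0.02 over 77 genes. The cytosolic set had its highest median at d5 (0.11), when the biogenesis factors stood at -0.01. The difference between these lists was not tested.

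**Figure D3:**
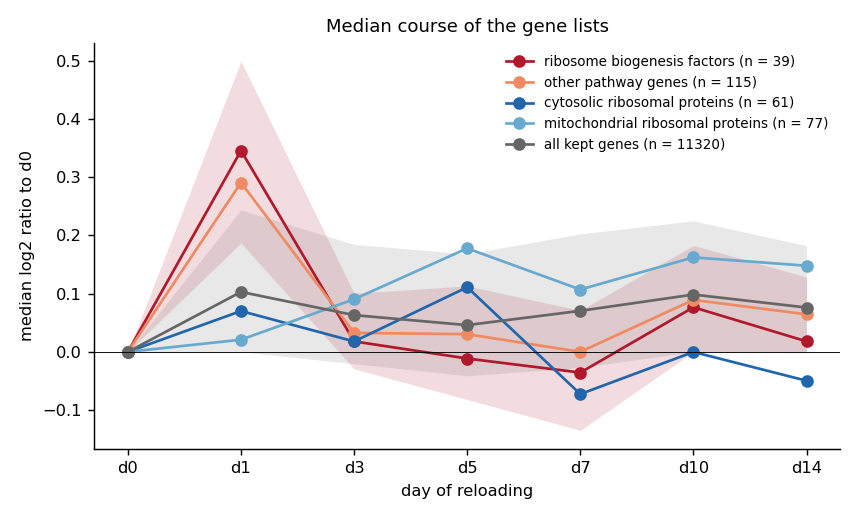
Median log2 ratio to d0 by day for the biogenesis factors, the other pathway genes, cytosolic and mitochondrial ribosomal proteins and all kept genes; bands span the middle quartiles of the factors and of the kept genes. The biogenesis factors and other pathway genes stand at 0.35 and 0.29 at d1 and at 0.02 and 0.03 at d3, while the medians of both ribosomal protein lists are at most 0.18.

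Several of the genes carry snoRNAs in their introns, which are cut from the same transcript. RefSeq places 19 snoRNAs inside 7 of these genes, and 4 of them had a row of their own. Snord57, inside Nop56, had 3294.6 at d1 against 3847.8 at d0 (log2 -0.22), while Nop56 stood at 0.36. Snord82, inside Ncl, had 1838.1 at d1 against 2001.8 at d0 (log2 -0.12), while Ncl stood at 0.34. Snord53, inside Wdr43, had 144.7 at d1 against 205 at d0 (log2 -0.50), while Wdr43 stood at 0.46. The snoRNA and its host thus lay on opposite sides of d0 at d1 in these 3 pairs. Snord53 was below d0 on every later array too, from -0.77 at d7 to -0.46 at d14. All 3 snoRNAs and all 3 hosts had their lowest value at d7. Snora75, also inside Ncl, was below the filter on low values, at 86 to 107.

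The day 7 array formed the low point. The genes were lowest at d7 in 19 of 39 cases, against 13.2% of kept genes, a count looked at after the values were seen. Without the d0 array it was 21 of 39, against 19% of kept genes. Set against the mean of d5 and d10, d7 was lower in 28 of 39 genes (50% of kept genes), with a median of -0.06. Npm1 was the farthest, at -0.87 on that measure and at -0.81 against d0, the only one of the 39 at least 1.5-fold lower than d0 (0.468% of kept genes). The next lowest on the first measure were Ncl at -0.28, Nop10 and Nhp2 at -0.26, Dkc1, Utp15 and Rrs1 at -0.24 and Nop58 at -0.23. The remaining abundant nucleolar and snoRNP genes were Nop56 at -0.11, Ddx21 at -0.09, Nolc1 at -0.01, Fbl at 0 and Gar1 at 0.01. The second row of Fbl, however, was highest at d7. Farthest above the mean of d5 and d10 were Polr1b at 0.13, Rrp12 at 0.12, Nop2 at 0.10 and Bysl at 0.09. Nop14, Rrp9 and Tsr1 followed at 0.08, 0.07 and 0.06. Of the 115 other pathway genes, 33 were lowest at d7 (13.2% of kept genes), but more, 46, were lowest at d0 (39.2% of kept genes). Cytosolic ribosomal proteins had their lowest median at d7, at -0.07.

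**Figure D4:**
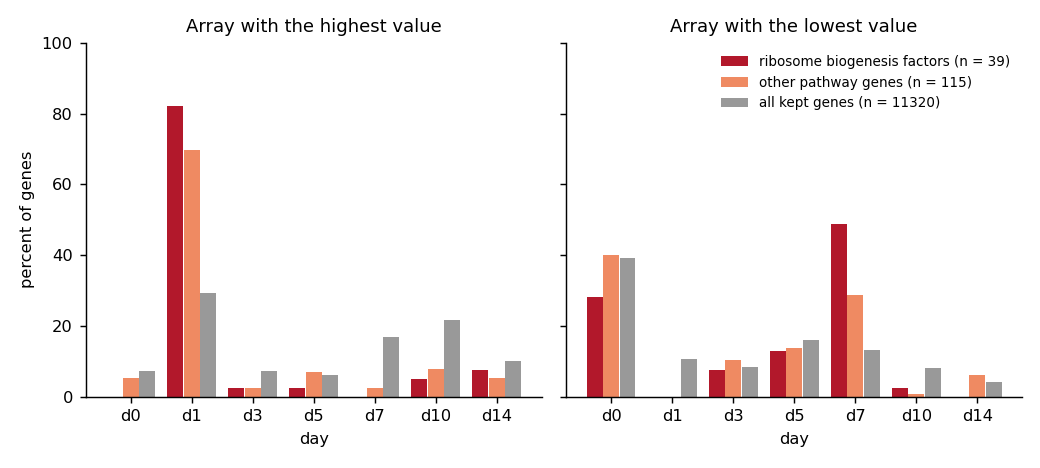
Percent of genes whose highest (left) or lowest (right) value fell on each array, for the 39 biogenesis factors, 115 other pathway genes and 11320 kept genes. The factors gather at d1 on the left (32 of 39) and at d7 on the right (19 of 39). The other pathway genes (46 of 115) and the kept genes (39.2%) are most often lowest at d0.

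At d0, by contrast, the list held fewer lowest values than at d7. In all, 11 of the 39 genes were lowest at d0, against 39.2% of kept genes. For the other pathway genes the count at d0 was 46 of 115, close to the share of the kept genes. At d14 the median of the list stood at 0.02 from d0, and that of the kept genes at 0.08.

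A straight trend on log2(day + 1) was fitted with limma over the kept genes, with Benjamini-Hochberg adjustment, and its error is the scatter of the pools about the line. Over d0 to d14, 0 of the 38 genes that passed the filter had an adjusted p of 0.05 or less, and 0 at an unadjusted p of 0.05. Of the 11320 kept genes, 0 passed the adjusted threshold in either direction, so the count of 0 says nothing of the list (at the unadjusted p, 9.58% of kept genes rose and 1.12% fell at that level). Over the 6 arrays from d1 to d14, 35 of the 38 slopes were negative (51.9% of kept genes) and again 0 passed the adjusted threshold (0.168% of kept genes rose and 0.212% fell at it). At an unadjusted p of 0.05, 0 of the 38 rose and 12 fell (7.27% and 6.58% of kept genes). Gnl3 had the smallest limma adjusted p, 0.146, with a slope of -0.20 ± 0.047 (SE) per doubling of day + 1. Nop58 had the steepest slope, -0.23 ± 0.079, with a limma adjusted p of 0.273. Nop10, Nob1 and Ddx10 had positive slopes. The negative slopes rested on d1, because without it 26 of 38 slopes were positive and 0 genes fell at an unadjusted p of 0.05.

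Marker lists also differed between d1 and d0. All 12 skeletal muscle markers were lower at d1, with a median log2 ratio of -0.10 and a summed intensity of 172226 against 184307 at d0. Macrophage markers had a median log2 ratio of 0.38 at d1, with 11 of 11 higher, and a summed intensity of 6430.2 against 4274.1 at d0. They stayed at 0.36 at d3, when the biogenesis factors were at 0.02. Endothelial markers stood at 0.37 and 0.40 on these days over 6 genes, and fibroblast markers at 0.12 and 0.62 over 6 genes. Of the fibroblast markers, 4 were above d0 on both days and 2, Pdgfra and Dcn, were below it. The summed fibroblast intensity was 13040.4 at d1 against 14120.3 at d0. Mitosis genes stood at 0.36 at d1, 0.58 at d3 and 0.76 at d10 over 13 genes, and neutrophil markers at 0.60, 1.01 and 2.29 over 10 genes, days on which the factors stood at 0.35, 0.02 and 0.08. Markers of satellite cells, the stem cells of muscle, had a median of 0.06 at d1 over 8 genes, with 4 higher, 3 lower and 1 equal. They ran from 0.65 for Myog (164.8 against 105.2, below the filter on average), 0.40 for Vcam1, 0.38 for Myod1 and 0.11 for Cdh15 through 0 for Myf5 to -0.01 for Pax7, -0.03 for Sdc4 and -0.17 for Calcr. On average, 5 of the 13 mitosis genes, 7 of the 10 neutrophil and 9 of the 11 macrophage markers passed the filter, and no marker was listed at 0 on any array. The part of these cells in the d1 peak was not tested.

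Many genes repeat a value exactly between arrays. Of the 39 genes, 22 had the same deposited intensity on at least 2 arrays, against 54.6% of kept genes, and 10 had their d0 value again on a later day. The 290.6 of Fbl on 5 arrays is an example, as is the 323.1 of Ltv1 at d0, d3, d10 and d14. No gene of the list shared its d1 value with another array. The shares of kept genes with a repeated d0 or d1 value were not counted, so neither count is read as particular to the list. The 17 genes with 7 distinct values had a median d1 log2 ratio of 0.37 and the 22 with repeats one of 0.30. The step that makes values equal was not tested.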

How the data were processed

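Labelled cDNA of each pool was hybridised to an Affymetrix mouse gene array, per the labels' protocols. Each deposited value is a linear intensity of 1 row on 1 array, and the array medians lie close together. They ran over 128.1 to 131.8. The submitters' processing notes name Partek, without a version or a step. How probes were summarized and arrays normalized, and on which build, is not given in the sources used here. RNA input was 250 ng by the labelling protocol and 100 ng by the design text.

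The deposited intensities were converted to log2, adding a pseudocount of 0. Among 35556 rows, 21789 had 1 gene symbol, 1621 several and 12146 none in the platform annotation. Only the first were used, and Entrez IDs matched 21698 of them to RefSeq with 0 symbols changed. Genes with a mean at or above the median row were kept, which favours no day. Of the list, 36 genes had 1 row and 3 had 2. For these 3, Fbl, Wdr12 and Mrto4, the annotation does not state whether the row used is the gene's own or a copy's. Row numbers of the list otherwise fall in blocks by chromosome. The second rows of these 3 fall where the gene's own chromosome would place them, and the rows used fall elsewhere. The rows used may therefore be those of copies. Older symbols of other lists were matched through RefSeq synonyms.

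Slopes came from limma 3.58.1 under R 4.3.3 (lmFit, eBayes with an intensity trend, two-sided), a fit tested on simulated data. Python 3.11.15, numpy 2.4.6, pandas 2.3.3 and matplotlib 3.10.9 did the rest. Every gene of the list was named, with all 7 values for the highest and lowest d1 ratio in each role group and the 6 highest of all. Of other pathway genes and regulators, the 6 highest, the 3 lowest and Myc were named, and markers and regulators beyond these were chosen after their values were seen. The members and lists were chosen with earlier results of these data known. Alternatives changed the normalization, the reference array, the rows, the filter, the threshold, the pseudocount and the scale of the day, or left out a time point.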

Additional observations from a re-analysis of the deposited data

How the results depend on the processing

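The d1 median of the biogenesis factors lay between 0.28 and 0.37, the count highest at d1 between 29 and 32 and the count lowest at d7 between 18 and 22 under the alternatives run for each. Chosen after seeing the data were the alternatives of the count lowest at d7, the mean of d3 to d14 or of d5 and d10 as the reference, the genes without repeated values, and the counts without d0. The d7 median lay between -0.11 and 0, and those of the other days after d1 lay on either side of 0. Under quantile normalization 4 of the 39 d1 ratios moved by more than 0.0885, the spread of the closest pair of arrays, as did 17 with d14 as the reference and 14 with the mean of the 6 other arrays. With d14, Mrto4 stood at 0.18, Ddx10 at 0.01 and Nhp2 at -0.02, against 0.59, 0.20 and 0.31 with d0. The d1 count of 6 at 1.5-fold was 5 with quantile normalization, the mean of all rows or d14 as the reference. It was 4 with a pseudocount of 16, where Nop58 (0.58) and Mrto4 (0.56) lay just below the threshold. The count stayed at 6 with equal array medians or the mean of the 6 other arrays. The kept genes' shares under these settings were not counted. With a threshold of 25% above d0, the counts of higher genes were 21 at d1, 3 on d3, 2 on d5, 1 on d7, 2 on d10 and 2 on d14, against 15.9%, 9.53%, 8.41%, 11.3%, 13.3% and 7.02% of kept genes, and at 2-fold the d1 count was 0. Genes falling from d1 to d14 at an unadjusted p of 0.05 in limma, 12 of 38 as reported, numbered 7 of the 19 genes past the filter at percentile 75 and, of 38, 19 with quantile normalization, 4 on the rank of the day and 1 on the day itself. With each time point left out they numbered 0 to 15, with 0 without d1 and 6 without d10. The adjusted count was 0 in each of these fits and in those over d0 to d14. No paired analysis was possible because each group is 1 pooled array. Scanner files were not used here, so signal over background is not known per gene.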

Other observations

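Growth signalling genes were read beside the biogenesis factors, and the 3 named here were picked after their values were seen. Mtor, the kinase that couples load and nutrients to ribosome production, had 0.53 at d1 on the log2 ratio scale and 0.07 at d3. Akt1, which acts upstream of it, had 0.37 at d1 and -0.08 at d3. Eif4ebp1, a repressor of translation that Mtor inactivates, had 0.01 at d1 and -0.36 at d5. Over the 9 regulators measured, the median was 0.10 at d1, the same as for the kept genes.

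Mitochondrial ribosomal proteins were lowest at d1 among the loaded arrays by their median. Their median log2 ratio was 0.02 at d1 and then 0.09, 0.18, 0.11, 0.16 and 0.15 on the 5 later arrays in order of day, with 68 of 77 genes above d0 on d14 (71.7% of kept genes).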
